A study of Oryza sativa with 7 samples.

Results

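Crown root primordia at initiation held a set of 170 genes whose level was at least 2 times that of every other tissue sampled. Their summed share of all counts was 1.37%, 1.78% and 1.36% in initiation replicates 1, 2 and 3, against 0.382% and 0.377% at outgrowth and 0.211% and 0.265% in ground tissue. The genes were chosen by these same read counts. Each had at least 5 CPM (reads per 1000000 reads counted in the library) in every initiation library, and its lowest initiation CPM was at least 2 times its highest CPM in any outgrowth or control library. The 170 were 0.687% of the 24728 genes with a LOC_Os identifier and 1.34% of the 12662 such genes at or above 5 CPM in all initiation libraries. Their excess at initiation is therefore the criterion of choice and is described without a test.

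The plants were wild-type seedlings of the rice cultivar IR64, 6 days old and germinated on diluted MS medium, and all 7 libraries came from the stem base. Primordia at initiation gave 3 libraries, primordia at outgrowth 2, and ground tissue, the control, 2. Each was cut out by laser capture microdissection, which excises chosen cells from a section under a microscope. No genotype or treatment other than IR64 enters, and the labels do not say how many plants a library pooled, so any p-value rests on differences between these libraries alone, and part of that spread may be technical.

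Crown roots are shoot-borne roots that form most of the root system of a rice plant. A primordium is initiated when ground tissue cells of the stem base re-enter division and take on a founder identity. It then builds a root apex and pushes out through the cortex at outgrowth. Auxin and cytokinin signalling, and transcription factors of several families, are known to act in this sequence. The files identify genes by locus identifiers alone. The RefSeq gene table of assembly ASM3414082v1 holds 0 of the 24775 identifiers, so the 170 genes are given by identifier, without names or roles, and the labelled tissues were not checked against marker genes.

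Total counts lay between 8351775 in control replicate 1 and 25448025 in control replicate 2, so that 5 CPM stood for 57, 75 and 105 reads in initiation replicates 1, 2 and 3. Between initiation replicates 1 and 3 the mean squared difference was 0.402 times the counting noise, against 28.8 times for replicates 1 and 2. They differed by less than sampling noise and enter as a single sample (n = 1). The 3 initiation libraries thus amount to 2 independent ones. In tissue samples of this kind, fewer cells of a type and less RNA per cell cannot be told apart. The outgrowth files also differed from all others in the layout of their header, and a separate batch cannot be told apart from that stage.

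The set was small beside those that the same criterion gave for the other groups. It selected 315 genes with outgrowth as the high group and 1537 with control, and 176 for initiation once replicates 1 and 3 were averaged, so that each group had 2 libraries. The ratio of the lowest initiation CPM to the highest CPM elsewhere had a median of 2.73 over the 170 genes. It was under 3 for 97 genes, at least 5 for 38 and at least 10 for 16, with a maximum of 55.5. The lowest initiation CPM had a median of 32.5. For 29 genes it was under 10 CPM, and for 19 it was at least 200 CPM. These 19 carried 50.7% of the set's summed mean CPM at initiation.

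**Figure D1:**
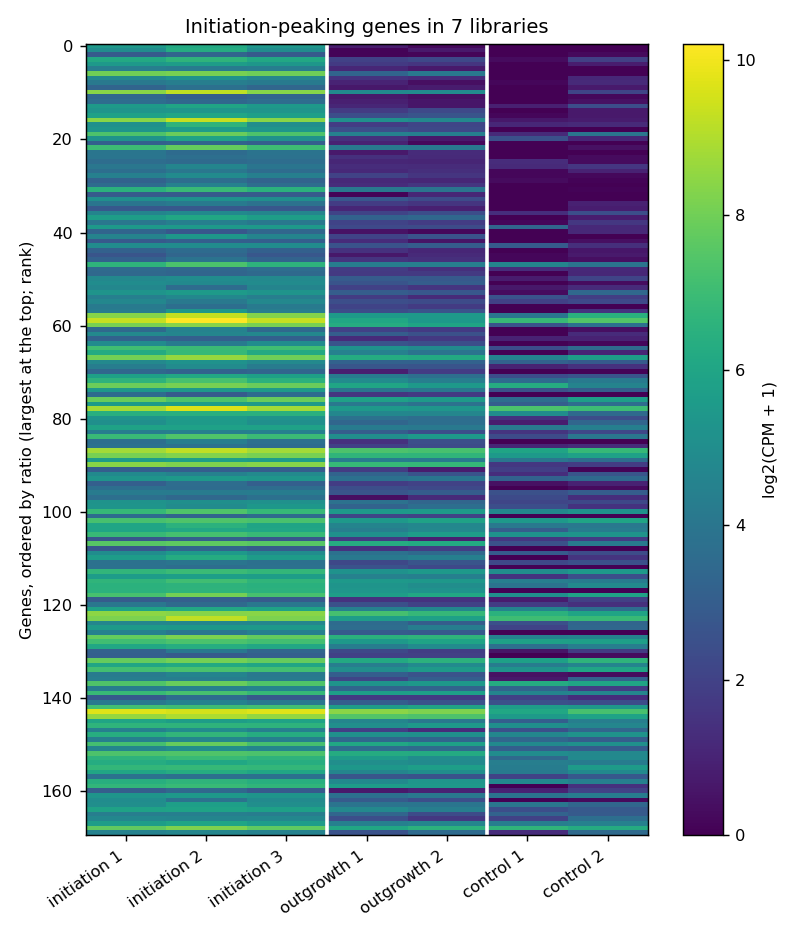
Colour gives log2(CPM + 1) of the 170 initiation-peaking genes (rows, ordered by the ratio of the lowest initiation CPM to the highest CPM elsewhere, largest at the top) in 7 libraries (columns). The upper rows are dark at outgrowth and in control, while the lower rows keep intermediate levels there; initiation replicates 1 and 3 look alike.

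The 6 genes with the largest ratios had initiation levels under 100 CPM in every library, but other genes with a ratio of at least 10 reached a lowest initiation level of 328 CPM. LOC_Os04g55505 had 42.8, 71.3 and 39.9 CPM in initiation replicates 1, 2 and 3, against 0.719 and 0.176 CPM in outgrowth replicates 1 and 2 and no read in control. LOC_Os01g12070 had 30.2, 78.0 and 29.8 CPM at initiation, 0.0799 and 0.617 CPM at outgrowth and no read in control. Both genes were at under 1% of their initiation level at outgrowth (0.798% and 0.646%), and their outgrowth values rest on 11 and 8 reads in all. A count of 0 over both control libraries allows a level of up to 0.0888 CPM, here and below for counting error only, because no molecular identifiers are named in the sources used here.

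LOC_Os05g37110 was weaker, with 6.40, 9.19 and 6.46 CPM at initiation, 1 read in each outgrowth library (0.0799 and 0.0882 CPM), and in control no read in replicate 1 and 0.196 CPM in replicate 2. Its initiation level lies near the 5 CPM needed for selection. LOC_Os08g39290 had 69.6, 97.7 and 68.0 CPM at initiation, 2.96 and 3.62 CPM at outgrowth and 0.239 and 2.83 CPM in control. LOC_Os03g27480 had 43.9, 50.1 and 41.4 CPM at initiation, 2.32 and 1.94 CPM at outgrowth, and no read and 0.747 CPM in control replicates 1 and 2. In both genes the initiation libraries were more than 10 times above every other library. LOC_Os03g17800 had 19.7, 18.2 and 19.2 CPM at initiation, 1.12 and 0.617 CPM at outgrowth and no read in control. These 6 genes had the largest ratios of the set, from 16.3 to 55.5.

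Of the 170 genes, 35 were under 10% of their mean initiation level at outgrowth, 82 were so in control and 27 in both. The mean outgrowth level was a median of 25.6% of the initiation level (range 0.646% to 46.3%). In control it was 11.6% (range 0% to 39.4%). By the criterion no other library could exceed the lowest initiation value divided by 2, so these upper ends were set in advance. Every gene had at least 1 read in each outgrowth library.

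The most abundant genes of the set kept clear levels elsewhere. LOC_Os05g34150 had the highest lowest value, with 830.4, 738 and 823 CPM at initiation, 344 and 296 CPM at outgrowth and 66.1 and 148 CPM in control. LOC_Os10g40720 had 632, 1178 and 633 CPM at initiation, 66.0 and 44.4 CPM at outgrowth and 118 and 176 CPM in control. The order of the other groups was thus opposite in these genes: outgrowth lay above control in LOC_Os05g34150 and below it in LOC_Os10g40720, without overlap in either. LOC_Os02g30850 resembled LOC_Os10g40720, with 451, 806 and 443 CPM at initiation, 43.9 and 39.7 CPM at outgrowth and 160 (replicate 1) and 128 CPM in control.

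LOC_Os03g54910 had 440.25, 602 and 447 CPM at initiation, 164 and 150.5 CPM at outgrowth and 60.9 and 115 CPM in control. LOC_Os06g44750 had 382, 496 and 374 CPM at initiation, 175 and 164 CPM at outgrowth and 45.7 and 59.0 CPM in control. Both were graded from initiation over outgrowth to control, with no overlap of libraries. LOC_Os07g40290 had 335, 624 and 329.9 CPM at initiation, 33.8 and 26.5 CPM at outgrowth and 0.599 and 0.707 CPM in control. It differs from the other 5 genes of highest level in that its control level was at 0.137% of that at initiation. Of the 19 genes with at least 200 CPM in every initiation library, 3 had a ratio of at least 5, and the median ratio was 2.69.

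**Figure D2:**
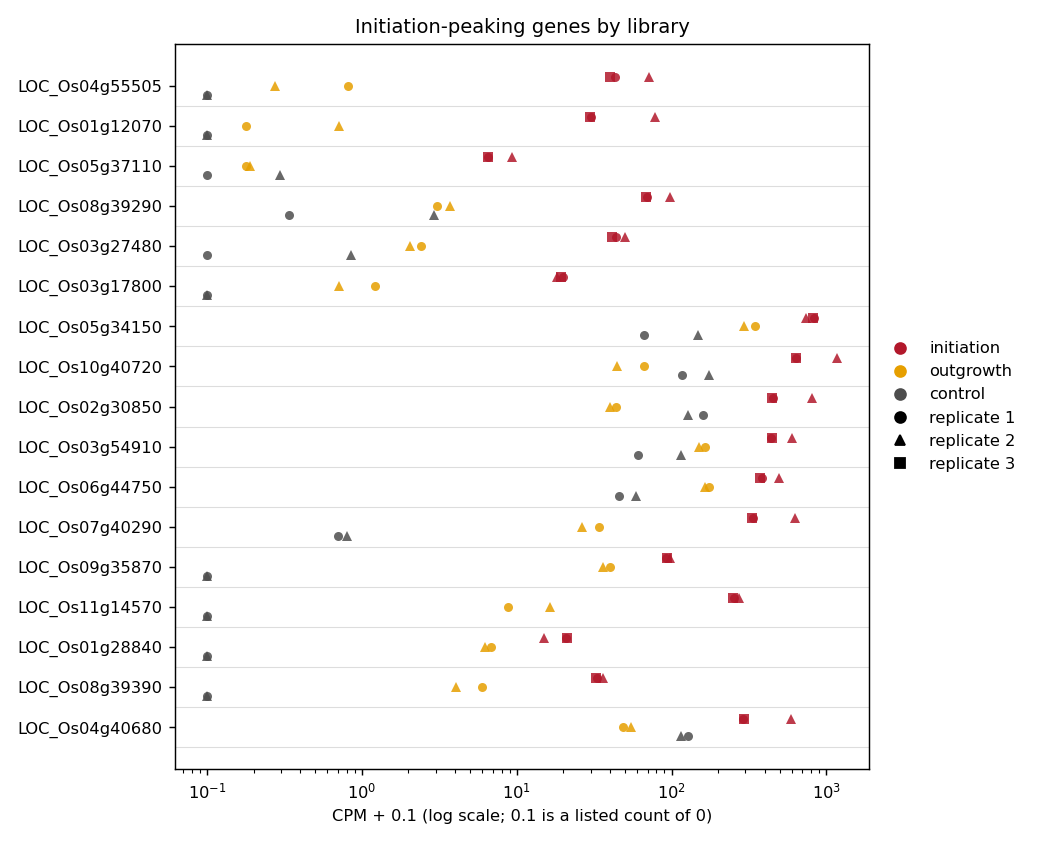
Each point is the level of 1 gene in 1 library, as CPM + 0.1 on a log scale, for 17 initiation-peaking genes; colour marks the group and shape the replicate number. Points at 0.1 are libraries without a read. The initiation points lie to the right of all others, as the choice of genes requires; control lies left of outgrowth in most rows and right of it in LOC_Os10g40720, LOC_Os02g30850 and LOC_Os04g40680.

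The initiation libraries did not hold these genes at equal levels. Replicate 2 was above both replicates 1 and 3 for 120 of the 170 genes (70.6%) and below both for 43. Among the other 12492 genes at or above 5 CPM at initiation, 45.1% were above both. The ratio of replicate 2 to the pooled replicates 1 and 3 had a median of 1.17 (range 0.464 to 3.01) over the 170 genes and 0.979 over the others. It exceeded 1.5 for 33 of the 170 (19.4%) and for 8.35% of the others. LOC_Os10g40720, LOC_Os02g30850 and LOC_Os07g40290, described above, were among them, with ratios of 1.86, 1.81 and 1.88. The criterion uses the lowest of the initiation libraries, so these shares describe the chosen genes and were not tested.

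**Figure D3:**
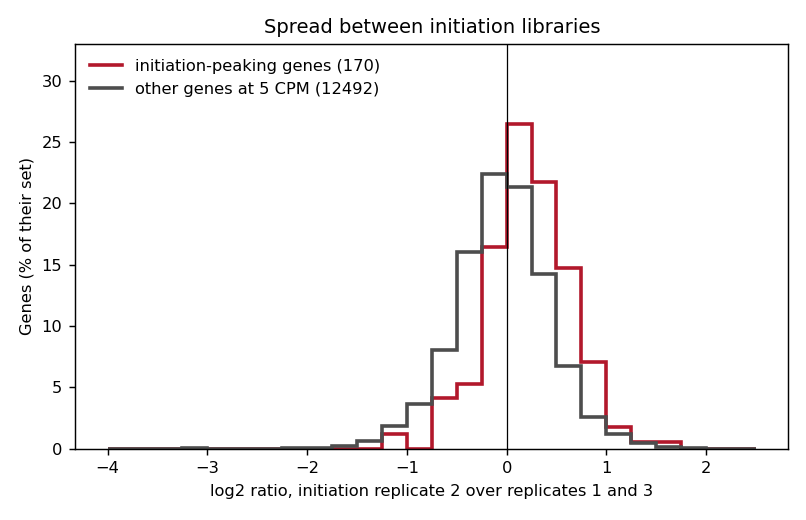
Histogram of the log2 ratio of initiation replicate 2 to pooled initiation replicates 1 and 3, as a percentage of each set, for the 170 initiation-peaking genes and the 12492 other genes at or above 5 CPM in all initiation libraries. The initiation-peaking genes are shifted to the right, with a median ratio of 1.17 against 0.979.

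The choice depended on both independent initiation libraries. Applied to initiation replicates 1 and 3 alone, the criterion gave 251 genes, and applied to replicate 2 alone it gave 368. The 170 genes are those common to both choices, 67.7% of the first and 46.2% of the second. Among all genes at or above 5 CPM in replicate 2, 2.79% met the 2-fold condition there. Among those at or above 5 CPM in replicates 1 and 3, 1.86% met it. Both choices share the outgrowth and control libraries, so this overlap is a description only.

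The contrast that the criterion did not use is outgrowth against control, although it caps both levels. This contrast asks where the genes stand in the outgrowth libraries relative to ground tissue. The spread in the joint fit also comes from the initiation libraries, by which the genes were chosen. Its calls and p-values are therefore not independent of the choice, and a fit without initiation is given in the next paragraph. More genes of the set were called above ground tissue than below it: edgeR's quasi-likelihood test called 61 of the 170 genes (35.9%) higher at outgrowth than in control and 3 (1.76%) lower, at a Benjamini-Hochberg adjusted p below 0.05 over 18830 genes. Among all 18830 genes tested, 12.8% were called higher and 13.6% lower. Of the 170 genes, 16 passed the filter on low counts, at least 1 CPM in at least 2 libraries, through initiation alone, and nothing is read from their tests. Of the other 154, 56 were called higher and 3 lower. The median log2 difference, outgrowth minus control, was 1.05 over the 170 genes, also with genes lacking a control read set at their bound, and -0.02 over all genes tested. The 61 calls, this median and the library counts that follow are over all 170 genes, the 16 included. With outgrowth and control libraries alone in the fit, the median was 1.03 over 154 genes of the set and -0.024 over all genes. Both outgrowth libraries lay above both control libraries for 108 of the 170 genes, against 33.8% of all genes tested, and below both for 7, against 35.5%. For 55 genes the groups overlapped.

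For genes that passed the filter without initiation, the share over all genes was obtained only in the fit of outgrowth and control libraries alone. It is given at the end of this paragraph. The counts depended on single libraries: fewer genes were called higher without either outgrowth library, and more without either control library. This held among all genes tested as well as in the set. Each of these fits left 1 library in a group, so only median differences are given for them. The median log2 difference of the set was 1.03 without outgrowth replicate 1 and 1.14 without outgrowth replicate 2, against -0.051 and -0.029 over all genes. Without control replicate 1 it was 0.87 and without control replicate 2 it was 1.92, against 0.025 and 0.136 over all genes. With outgrowth and control libraries alone in the fit, 39 of 154 genes (25.3%) were called higher and 3 (1.95%) lower, against 11.3% and 14.05% of all genes in that fit.

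Among the 61 genes called higher, 17 had no read in control, 3 had 1 to 3 reads and 41 had more. Over those 41 the log2 difference ranged from 0.81 to 5.85 with a median of 2.73. Of the 17 genes without a control read, 4 passed the filter through initiation alone, and nothing is read from their bounds. For the others the lower bound on the fold, set against 3 reads over the control group, ranged from 18.9 to 430.3. In all, 19 of the 170 genes had no control read; their lowest initiation level ranged from 5.78 to 249 CPM and their mean outgrowth level from 0.349 to 38.1 CPM. A further 30 had no read in control replicate 1, which was the shallower library, but some in replicate 2, and none showed the reverse. The level in control replicate 2 predicted 10 or more reads in replicate 1 for 115 of the 170 genes, of which 7 had none there, against 699 of 17559 over all genes, so that the bounds may be too high.

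The largest fitted differences between outgrowth and control were all in genes without a control read. LOC_Os09g35870 had 91.9, 97.4 and 93.3 CPM at initiation, 40.1 and 36.1 CPM at outgrowth and no read in control. It was at least 430.3-fold higher at outgrowth than in control (edgeR adjusted p = 0.000102). Of these genes it kept the most of its initiation level at outgrowth, 40.04%. LOC_Os11g14570 had 252, 273 and 249 CPM at initiation and 8.71 and 16.2 CPM at outgrowth, which puts it at least 138-fold higher than in control (edgeR adjusted p = 0.000408). Its outgrowth level was 4.77% of that at initiation, while its control libraries had no read.

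LOC_Os01g28840 had 20.9, 15.0 and 21.0 CPM at initiation and 6.71 and 6.17 CPM at outgrowth, at least 72.7-fold higher than in control (edgeR adjusted p = 0.00118). LOC_Os08g39390 had 32.8, 36.0 and 32.4 CPM at initiation and 5.91 and 3.97 CPM at outgrowth, at least 56.2-fold higher than in control (edgeR adjusted p = 0.000925). All 4 genes were called under each of the 15 alternative settings. Among the genes of highest level, LOC_Os07g40290 was higher at outgrowth than in control by 5.51 on the log2 scale (standard error 0.44, edgeR adjusted p = 0.000242). The same held for LOC_Os06g44750 by 1.73 (standard error 0.22, edgeR adjusted p = 0.00164) and LOC_Os05g34150 by 1.61 (standard error 0.34, edgeR adjusted p = 0.0127). LOC_Os03g54910, with 157 ± 9.52 CPM at outgrowth (SD, n = 2) and 87.8 ± 37.9 CPM in ground tissue (SD, n = 2), was not called (edgeR adjusted p = 0.0724).

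**Figure D4:**
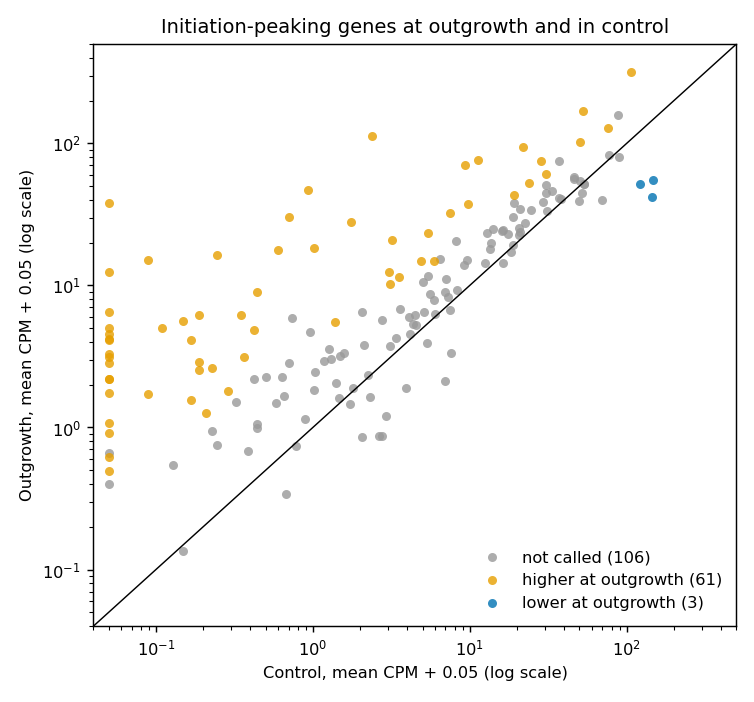
Mean CPM + 0.05 at outgrowth (vertical axis) and in control (horizontal axis), both on log scales, for the 170 initiation-peaking genes; the line marks equal levels, and colour marks the edgeR call. The 61 genes called higher lie above the line, from the column without control reads at the left edge to levels over 100 CPM, and the 3 called lower lie below it at the right. Of the 170 genes, 16 passed the filter on low counts through initiation alone.

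The 3 genes of the set called lower at outgrowth than in control all had at least 291 CPM in every initiation library. LOC_Os02g30850 averaged 41.8 ± 2.95 CPM at outgrowth (SD, n = 2) and 144 ± 22.2 CPM in ground tissue (SD, n = 2), a log2 difference of -1.74 (standard error 0.30, edgeR adjusted p = 0.00533). LOC_Os10g40720 averaged 55.2 ± 15.3 CPM at outgrowth (SD, n = 2) and 147 ± 41.2 CPM in ground tissue (SD, n = 2), a log2 difference of -1.37 (standard error 0.36, edgeR adjusted p = 0.0273). LOC_Os04g40680 had 291, 591 and 293 CPM at initiation, 48.5 and 54.6 CPM at outgrowth and 129 and 115 CPM in control. Its log2 difference was -1.20 (standard error 0.32, edgeR adjusted p = 0.0305). These genes were thus high at initiation, intermediate in ground tissue and lowest at outgrowth. The call was lost without outgrowth replicate 1 for LOC_Os10g40720 and LOC_Os04g40680 (edgeR adjusted p = 0.0638 and 0.172), and without outgrowth replicate 2 for all 3 (edgeR adjusted p = 0.0518 for LOC_Os02g30850, 0.183 and 0.130 for the others). It was also lost without control replicate 2 for LOC_Os10g40720 (edgeR adjusted p = 0.0793) and without control replicate 1 for LOC_Os04g40680 (edgeR adjusted p = 0.0672).

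The 6 genes with the largest ratios all had under 5 CPM in every outgrowth and control library. LOC_Os04g55505 and LOC_Os03g17800 had 11 and 21 reads over the outgrowth libraries and none in control. Like LOC_Os01g12070 and LOC_Os05g37110, they entered the test through their initiation level alone, and nothing is read from their tests. LOC_Os08g39290 (edgeR adjusted p = 0.370) and LOC_Os03g27480 (edgeR adjusted p = 0.0743) reached 1 CPM in at least 2 libraries outside initiation and were not called. Over the whole set the mean was higher at outgrowth than in control for 145 of the 170 genes and lower for 25. The fitted log2 difference was also above 0 for 145 genes of the set, against 49.3% of all genes tested. These counts include the 16 genes that entered the test through initiation alone.

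The 170 genes were spread over all 12 chromosomes, as the locus identifiers give them. They ranged from 6 genes on chromosome 11 to 26 on chromosome 3. Relative to the genes at or above 5 CPM at initiation on the same chromosome, their share ranged from 0.746% on chromosome 7 to 1.96% on chromosome 9. There were 5 pairs of genes whose locus numbers differed by at most 30. LOC_Os08g39300, beside LOC_Os08g39290, had 15.7, 20.4 and 16.0 CPM at initiation, 3.20 and 2.56 CPM at outgrowth and 0.120 and 2.12 CPM in control. In both genes initiation replicate 2 was the highest library and control replicate 1 the lowest. LOC_Os04g33530 had 17.4, 11.8 and 17.1 CPM at initiation, 3.20 and 2.38 CPM at outgrowth and no read in control. Its neighbour LOC_Os04g33560 had 25.1, 11.2 and 23.4 CPM at initiation, 2.88 and 1.94 CPM at outgrowth and 0.599 and 1.38 CPM in control. Both were lower in initiation replicate 2 than in replicates 1 and 3. The other 3 pairs were on chromosomes 1, 2 and 3. LOC_Os01g62990 had 188, 201 and 188 CPM at initiation, 79.2 and 73.3 CPM at outgrowth and 4.79 and 17.8 CPM in control, beside LOC_Os01g63010 with 19.98, 25.6 and 19.4 CPM at initiation, 2.40 and 1.32 CPM at outgrowth and 5.15 and 2.59 CPM in control. In this pair outgrowth lay above control in the first gene and below it in the second. LOC_Os02g39390 had 104, 122 and 107 CPM at initiation beside LOC_Os02g39380 with 5.78, 8.86 and 6.61 CPM. LOC_Os03g11380 had 112, 169 and 113 CPM at initiation beside LOC_Os03g11400 with 37.5, 44.3 and 38.3 CPM. Where neighbours are near-identical copies their reads may have been divided between them, so each such level is uncertain.

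The thresholds cut through a continuous range. Just inside the floor of 5 CPM lay LOC_Os07g26860 with a lowest initiation level of 5.52 CPM, LOC_Os02g39380 with 5.78 CPM and LOC_Os03g09900 with 5.79 CPM. LOC_Os11g30760 and LOC_Os04g45590, each with 4.995 CPM, and LOC_Os05g47970 with 4.93 CPM met the 2-fold condition but lay just outside. Just inside the 2-fold condition lay LOC_Os02g26140, LOC_Os05g02310 and LOC_Os11g07050 with ratios of 2.003, 2.004 and 2.006. LOC_Os01g10840, LOC_Os05g45810 and LOC_Os06g20020 fell just short with ratios of 1.998, 1.997 and 1.997.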

How the data were processed

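The authors deposited 1 table per library of identifiers and values under a header that says FPKM. The deposited values are read counts, judged by their form: whole numbers with totals too large for FPKM. STAR was the aligner, per the submitters' processing notes, while its version, the counting tool, annotation, genome build and use of strand were not given in the sources used here. Without strand, reads of overlapping or antisense genes cannot be told apart. Absent genes were set to 0 reads. CPM used library totals.

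Groups were taken from the labels. Initiation replicates 1 and 3 were averaged and rounded, giving 6 libraries for a joint fit of group means in edgeR 4.0.16 (R 4.3.3) with TMM scaling, glmQLFit and glmQLFTest, two-sided, Benjamini-Hochberg over all genes, threshold 0.05. A standard error is the absolute log2 difference over the root of F. The test was run on simulated counts first. Alternatives used DESeq2 1.42.0, other filters and scalings, left-out libraries and a replicate block. Same-numbered libraries did not deviate together (r = 0.018, 0.0019 and -0.023 across 13779 genes), so replicate numbers were not taken as pairs. The genes named were the 6 with the largest ratio, the 6 of highest level, 4 called higher and 3 lower at outgrowth than in control, those next to a threshold and neighbours by locus number. The set, rules and lists were chosen with earlier results of these data known. The 47 fgenesh identifiers entered the totals and the fit, and 0 of them met the criterion. Lists by gene name could not be applied.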

Additional observations from a re-analysis of the deposited data

How the results depend on the processing

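Limits come first from depth and from 2 independent libraries per group. Control replicate 1, the shallowest library, resolves levels down to 0.359 CPM for a count of 0, and control replicate 2 down to 0.118 CPM. The size of the set followed its thresholds: 354 genes met the criterion at 1.5 times the highest other library and 73 at 3 times. It was 196 genes with TMM-scaled totals, 141 with a floor of 10 CPM, 230 with a floor of 2 CPM and 173 to 251 with a library left out. Of the 170 genes, 64 were called between outgrowth and control, against 4976 of all 18830 genes tested. This number was 42 (39 higher and 3 lower) with outgrowth and control libraries alone, where 154 genes of the set were tested. In that fit 4677 of all 18427 genes were called, 2088 higher and 2589 lower. The share called in the set was thus near that over all genes, and the set differed in the direction of its calls. Among the 154 that passed the filter without initiation, the joint fit called 56 higher and 3 lower. The cause of this difference between the fits was not tested. Fewer genes were called without either outgrowth library and more without either control library, over all genes tested as well as in the set. Each of these fits left 1 library in a group, and the range that follows does not describe the set alone. With a library left out, the number called was 39 to 102, with 38 to 97 higher and 0 to 5 lower. With no gene called lower, 4 were lower at an unadjusted p below 0.05. The genes called lower numbered 5 (2.94%) with DESeq2, 6 (3.53%) with no filter on low counts and 5 (2.94%) with initiation replicates 1 and 3 as separate libraries, against 16.4%, 11.1% and 17.0% of all genes in these fits; the cause was not tested. The median log2 difference of the set was 0.87 to 1.92 with a library left out, against -0.051 to 0.136 over all genes. With the replicate block, which rests only on shared numbers, 63 genes were called. Of the set, 35.3% were higher and 1.76% lower in that fit, against 11.5% and 11.8% of all genes.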
